A study of Mus musculus with 6 samples.

Results

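The unfolded protein response and the heat shock response were examined gene by gene in hippocampal RNA from mice with and without the lysine acetyltransferase CBP, encoded by Crebbp, in forebrain excitatory neurons. The set held 36 genes chosen by name, 25 of the unfolded protein response and 11 of the heat shock response, among 55471 genes in the count table. Of these, 34 had enough reads to be tested, among 17981 genes tested in all. Trib3, a pseudokinase induced late in endoplasmic reticulum stress, had between 2 and 9 reads per library and was not tested. Hspb1, a small heat shock protein, had between 2 and 7 reads per library and was not tested either.

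Proteins of the secretory pathway fold in the endoplasmic reticulum (ER) with the help of resident chaperones, lectins and disulfide isomerases. When unfolded proteins accumulate there, the sensors PERK (Eif2ak3), IRE1 (Ern1) and ATF6 signal to the nucleus and raise the transcription of these folding factors and of the machinery that returns misfolded proteins to the cytosol for degradation. In the cytosol, the factor HSF1 does the same for the inducible Hsp70 genes and their partners, and neurons are known for high constitutive levels of Hsc70 and Hsp90 and a weak induction of Hsp70.

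All animals were C57BL/6, 3 to 6 months old, and received 5 intragastric doses of tamoxifen on alternate days. CBP-ifKO animals (3 libraries) carried floxed Crebbp and a tamoxifen-dependent Cre driven by Camk2a (Crebbp_flox;Camk2a_creERT2). Control animals (3 libraries) received the same drug, and their description in the labels reads Camk2a_creERT2 whereas the treatment text describes littermates lacking the transgene. Esr1, whose sequence forms part of creERT2, stood at 5.65 to 6.29 CPM (reads per library scaled to a common size with TMM) in the Control libraries and at 63.6 to 69.4 CPM in CBP-ifKO. Because the driver acts in excitatory neurons, other hippocampal cells retain Crebbp. Per the study's methods, each library was made from pooled hippocampi of 3 females kept in standard cages. Crebbp fell to 51.5% of Control (-0.96 ± 0.10 SE on the log2 scale, Benjamini-Hochberg adjusted p = 3.63e-05 by the quasi-likelihood test of edgeR). Libraries held 10199008 to 14950257 counts. Summed markers of excitatory neurons were 2531 to 2950 CPM in Control and 2669 to 3052 CPM in CBP-ifKO with 0 of the list past the threshold, and those of astrocytes, microglia and oligodendrocytes overlapped between groups. Camk2a alone gave 1693 to 2092 CPM of the excitatory sum in Control and 1948 to 2205 CPM in CBP-ifKO. Its promoter drives the transgene, and the part of the transgene in its reads was not tested. Markers of CA1 neurons summed to 299.8 to 311 CPM in Control and 201 to 213 CPM in CBP-ifKO, those of CA3 neurons to 257 to 275 and 215 to 226 CPM, those of dentate granule cells to 282 to 318 and 326 to 359 CPM, and those of interneurons to 529 to 553 and 473 to 503 CPM. The dentate markers did not move together. Only Lct passed the threshold (log2 fold change 0.71), Prox1 and C1ql3 had 0.22 and 0.13, and Dsp had -0.19. The interneuron markers also differed among themselves. Sst (-0.51) and Slc32a1 (-0.38) passed as lower, whereas Pvalb, Gad1, Gad2 and Vip did not pass, with -0.19, -0.06, -0.08 and 0.16. The part that these shifts between cell types have in the results for the chaperone genes was not tested. In bulk tissue, fewer cells of a type and less RNA per cell cannot be told apart. The labels do not state that replicates came from separate groups of animals, so p-values measure the spread between these libraries, which may be technical in part.

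ER stress element sequences lie upstream of many of the ER genes and are shown here because they mark the genes that ATF6 and XBP1 are known to act on. Promoter windows from RefSeq (GRCm38.p6, 250 bases before to 50 bases after a start site) matched 29 of the 36 genes, 22 of the unfolded protein response and 7 of the heat shock response. Hyou1, Manf, Atf6, Hspa8, Hsp90aa1, Hsp90ab1 and Hsf1 had no window and were not searched. The element searched was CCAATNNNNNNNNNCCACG on both strands. It was found in 8 of the 22 unfolded protein response genes (36.4%), in 0 of the 7 heat shock genes and in 37 of 27025 genes overall (0.137%). The matching stretches are given 5′ to 3′ on the gene's own strand with the element in capitals. Where the element lies on the opposite strand, the capitals begin with CGTGG.
Hspa5, chr2:34772010-34772058, plus strand: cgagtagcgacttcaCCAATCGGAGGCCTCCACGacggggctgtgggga
Calr, chr8:84847060-84847108, minus strand: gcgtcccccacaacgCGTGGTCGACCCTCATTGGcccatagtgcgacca
Hsp90b1, chr10:86705518-86705671, minus strand: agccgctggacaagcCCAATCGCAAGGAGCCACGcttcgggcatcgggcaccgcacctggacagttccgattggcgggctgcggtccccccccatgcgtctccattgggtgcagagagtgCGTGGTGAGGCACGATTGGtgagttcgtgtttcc
Canx, chr11:50325785-50325833, minus strand: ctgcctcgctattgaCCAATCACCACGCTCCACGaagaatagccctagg
Pdia6, chr12:17266476-17266524, plus strand: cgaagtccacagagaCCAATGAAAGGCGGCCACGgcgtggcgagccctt
Dnajc3, chr14:118937812-118937860, plus strand: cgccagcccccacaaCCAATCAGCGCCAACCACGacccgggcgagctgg
Creld2, chr15:88819505-88819553, plus strand: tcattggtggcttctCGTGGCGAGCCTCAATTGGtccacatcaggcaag
Syvn1, chr19:6046517-6046565, plus strand: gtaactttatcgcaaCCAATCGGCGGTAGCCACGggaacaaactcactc

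In Hspa5 the element runs from base -65 to base -47 relative to the start site, in Calr from -162 to -144, and Hsp90b1 holds it at -212 to -194 and again at -107 to -89. The related element ATTGGNCCACG was found in Dnajb11 and Herpud1 and in 12 of all 27025 genes. The heat shock element GAANNTTCNNGAA was found in 1 of the 7 heat shock genes, Hsph1, downstream of its start site, against 0.662% of all genes. TGACGTGG, an element bound by spliced XBP1, and TGACGTCA, the cyclic AMP response element through which CREB recruits CBP, were found in 0 of the 29 genes, against 0.714% and 2.03% of all genes. A match is a description of the letters in these windows and not of binding.

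Across the set, 5 of 34 tested genes differed between CBP-ifKO and Control at an adjusted p under 0.05. Hspa5, Calr and Pdia3, which encode ER folding proteins, were higher, and Atf6 and Hspa1b were lower. Over all genes tested, 6.39% passed the same threshold, 1.40% higher and 4.99% lower. Of the 24 unfolded protein response genes tested, 4 passed (3 higher and 1 lower), and of the 10 heat shock genes tested, 1 passed (lower). At an unadjusted p under 0.05 by edgeR the set held 8 higher and 3 lower genes among the 34 tested. Over all genes, 3816 of the 17981 tested were under the same limit. The median log2 fold change was 0.089 for the unfolded protein response genes and -0.0040 for the heat shock genes, beside -0.0033 over all genes tested. Of all genes tested, 49.3% had a log2 fold change above 0. The 4 called ER genes stood between 82.1% and 131% of their Control level.

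**Figure D1:**
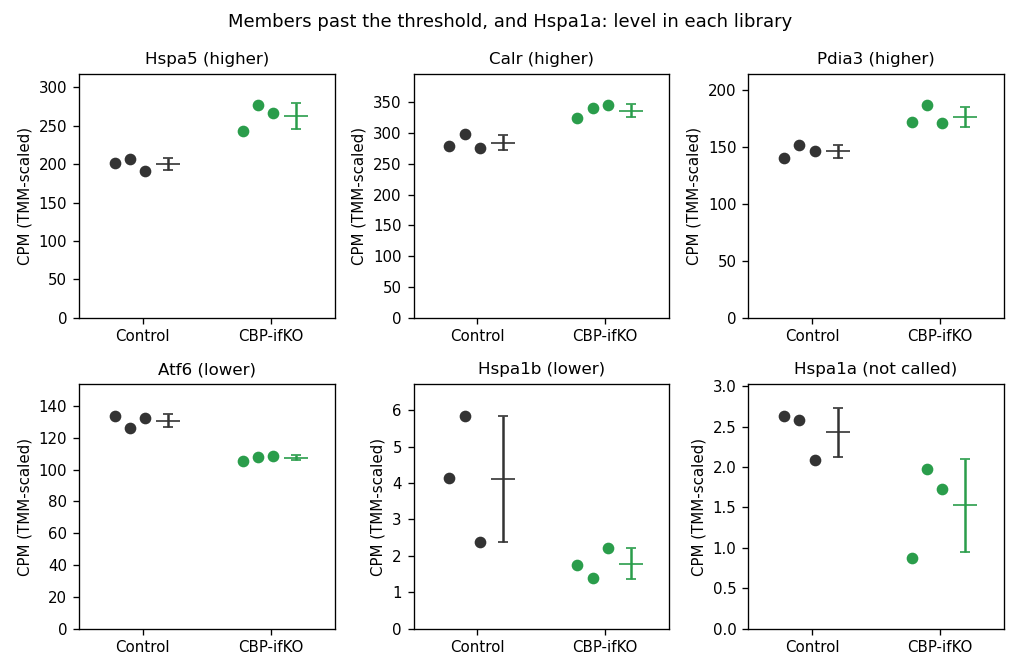
Level in CPM (TMM-scaled, linear axis from 0) of the 5 genes past the threshold and of Hspa1a in each Control (black) and CBP-ifKO (green) library, with mean and SD over 3 libraries beside the points. The CBP-ifKO points of Hspa5, Calr and Pdia3 all lie above the Control points, those of Atf6 all lie below, and those of Hspa1b and Hspa1a lie below within a wide spread at levels under 6 CPM.

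Hspa5 encodes BiP, the ER Hsp70 that binds unfolded chains and holds the sensors inactive. Its level was 202, 207 and 192 CPM in Control and 244, 276 and 267 CPM in CBP-ifKO. The lowest CBP-ifKO library stood above the highest Control library. The level was 131% of Control, a log2 fold change of 0.39 ± 0.062 SE (95% interval 0.26 to 0.52, edgeR adjusted p = 0.00118). The gene lies on chr2:34771970-34777547 (GRCm38), and none of its 50-base words is shared with another gene.

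Hsp90b1 encodes GRP94, the Hsp90 of the ER. It measured 268, 263 and 257 CPM in Control and 274, 314 and 276 CPM in CBP-ifKO, groups that did not overlap. The log2 fold change of 0.13 did not pass (edgeR adjusted p = 0.231), and its 95% interval ran from 0.00 to 0.26. Hyou1, the large Hsp70-like nucleotide exchange factor of BiP, had a log2 fold change of 0.10 with overlapping groups (edgeR adjusted p = 0.389).

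Calreticulin and calnexin are the lectins that retain glycoproteins until they are folded. Calr measured 279, 298 and 275 CPM in Control and 323, 341 and 345 CPM in CBP-ifKO. All CBP-ifKO libraries exceeded all Control libraries at this gene, on chr8:84841850-84846934. The log2 fold change was 0.24 ± 0.057 SE (95% interval 0.12 to 0.37, edgeR adjusted p = 0.0162), and 4 of the 6 libraries each decided the call, as the adjusted p became 0.0564 without Control replicate 1, 0.11 without Control replicate 3, 0.0536 when CBP-ifKO replicate 2 was dropped and 0.0883 when CBP-ifKO replicate 3 was. Canx measured 539, 558 and 544 CPM in Control and 573, 651 and 614 CPM in CBP-ifKO. Its groups did not overlap, but the log2 fold change of 0.16 did not pass (95% interval 0.04 to 0.29, edgeR adjusted p = 0.107).

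The disulfide isomerases form and rearrange the bonds between cysteines. Pdia3, which encodes ERp57, the partner of both lectins, measured 140.5, 152 and 146 CPM in Control and 171, 186 and 171 CPM in CBP-ifKO. Again the groups were apart. The gene lies on chr2:121413775-121438687. The log2 fold change was 0.27 ± 0.061 SE (95% interval 0.14 to 0.40, edgeR adjusted p = 0.0120), which became 0.0615 without Control replicate 3 and 0.0582 when CBP-ifKO replicate 2 was dropped. Its promoter window held none of the elements searched. The other isomerases did not pass, with log2 fold changes of 0.14 for Pdia4, 0.08 for P4hb and 0.04 for Pdia6.

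None of the 6 ER co-chaperones and secreted folding factors passed the threshold in edgeR or DESeq2, and 2 had an unadjusted p under 0.05 in edgeR. Manf, a secreted survival factor retained by BiP, measured 26.8, 25.1 and 27.1 CPM in Control and 30.5, 31.9 and 29.5 CPM in CBP-ifKO, groups without overlap (log2 fold change 0.22, edgeR adjusted p = 0.140). Dnajb11, a J-domain partner of BiP, had a log2 fold change of 0.18 (edgeR adjusted p = 0.180), and Sdf2l1, a component of the same complex measured at about 5 CPM, also 0.18 (edgeR adjusted p = 0.608). Dnajc3, another J-domain protein that inhibits eIF2α kinases, had 0.10. Dnajb9 and Creld2, both also known targets of the response, had log2 fold changes of -0.03 and -0.10 with overlapping groups.

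**Figure D2:**
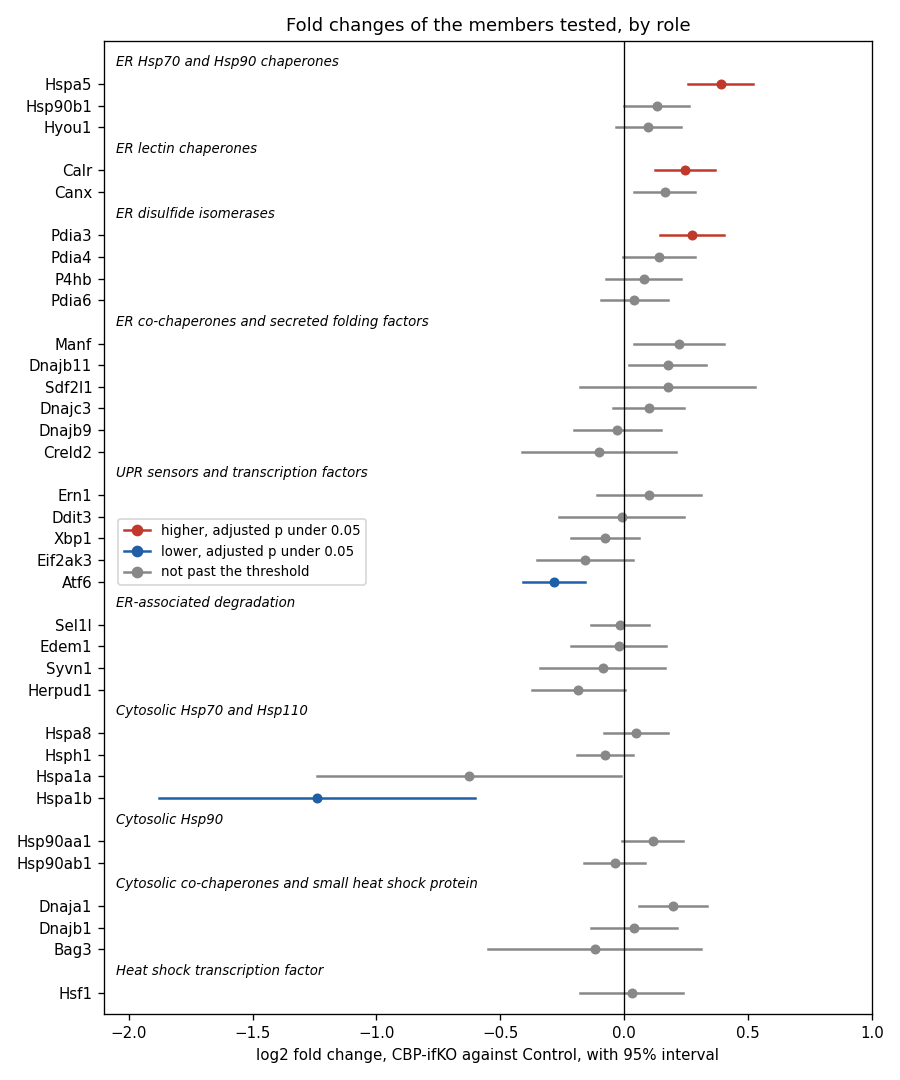
log2 fold change of CBP-ifKO against Control (x axis) with its 95% interval for the 34 genes tested, grouped by role, with genes past an adjusted p of 0.05 in red (higher) or blue (lower) and the others in grey. All 9 ER chaperones, lectins and isomerases lie right of 0 and 3 of them are red, whereas the 4 degradation genes lie left of 0 in grey and only Hspa1b lies beyond -1.

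Atf6 encodes the sensor that is cut in the Golgi and then acts as a transcription factor on BiP and its partners. The gene spans chr1:170704674-170867771, and it measured 134, 126 and 133 CPM in Control and 106, 108 and 109 CPM in CBP-ifKO. The highest CBP-ifKO library was below the lowest Control library. The level was 82.1% of Control, a log2 fold change of -0.28 ± 0.059 SE (95% interval -0.41 to -0.16, edgeR adjusted p = 0.00788), which became 0.0558 without Control replicate 3 and 0.0542 when CBP-ifKO replicate 3 was dropped. It was the one gene of the sensor group to pass the threshold.

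The other sensors and transcription factors did not pass. Xbp1, the factor whose mRNA IRE1 splices, measured 62.6, 63.6 and 61.0 CPM in Control and 59.0, 60.4 and 58.2 CPM in CBP-ifKO, a small downward gap without overlap (log2 fold change -0.08, 95% interval -0.21 to 0.06, edgeR adjusted p = 0.557). Counts per gene do not separate its spliced from its unspliced form. Eif2ak3, which encodes PERK, was also lower without overlap, at 27.8, 25.9 and 25.8 CPM against 25.1, 24.4 and 21.8 CPM (log2 fold change -0.16, edgeR adjusted p = 0.351). Ern1, encoding IRE1, had a log2 fold change of 0.10 (edgeR adjusted p = 0.624). Ddit3 encodes CHOP, the factor that links lasting ER stress to cell death, and its levels were 13.4, 11.1 and 12.6 CPM in Control and 11.9, 12.5 and 12.3 CPM in CBP-ifKO. These overlapped fully (log2 fold change -0.01, 95% interval -0.26 to 0.24, edgeR adjusted p = 0.978).

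ER-associated degradation was represented by 4 genes, of which none passed in edgeR or DESeq2 and 0 had an unadjusted p under 0.05 in edgeR. Herpud1, a scaffold of the retrotranslocation complex that is induced by ER stress, measured 35.7, 43.1 and 38.2 CPM in Control and 31.6, 36.3 and 34.8 CPM in CBP-ifKO (a log2 change -0.19, edgeR adjusted p = 0.243). Its groups overlapped through Control replicate 1 and CBP-ifKO replicate 2. Sel1l and Syvn1, the adaptor and the ubiquitin ligase of that complex, had log2 fold changes of -0.02 and -0.09, and Edem1, which hands over misfolded glycoproteins, -0.02. All 4 point estimates were below 0, and the signs of Sel1l, Syvn1 and Edem1 turned positive under other scalings or corrections.

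The 8 genes with the ER stress element in their window included 2 of the 3 ER genes that were higher, Hspa5 and Calr. Their log2 fold changes ran from -0.10 (Creld2) to 0.39 (Hspa5), with 6 above 0 and a median of 0.12. Of the 14 unfolded protein response genes whose window lacked it, 13 were tested, 6 of them were above 0, 1 was called higher (Pdia3) and the median was -0.0092. Atf6 (-0.28, called lower), Hyou1 (0.10) and Manf (0.22) had no window and are in neither group. Outside the set, 29 genes carried the element, and 9 of them were matched by symbol to a tested gene. The median of these 9 was -0.0055 and the smallest edgeR adjusted p was 0.309 (Alg12). Ero1b, another of the 29, was counted under the symbol Ero1lb and is left out of that median. Its log2 fold change was 0.12 (edgeR adjusted p = 0.522). These values were not tested against each other.

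In the heat shock arm, the inducible Hsp70 genes stood apart from the rest. Hspa1b encodes an Hsp70 that is nearly silent in unstressed cells, and it had 44, 68 and 24 reads in Control and 18, 21 and 27 in CBP-ifKO, or 4.13, 5.84 and 2.38 CPM against 1.74, 1.38 and 2.22 CPM. The groups did not overlap, though Control replicate 3 and CBP-ifKO replicate 3 nearly met. The level was 43.3% of Control, a log2 fold change of -1.24 ± 0.30 SE (95% interval -1.88 to -0.60, edgeR adjusted p = 0.0207). The fold and its call depended on single libraries, since without Control replicate 2 the log2 fold change was -0.88 (adjusted p = 0.0835), without CBP-ifKO replicate 1 it was -1.23 (0.0564) and without CBP-ifKO replicate 2 it was -1.05 (0.141). Hspa1a, its neighbour (chr17:34969190-34972156 beside chr17:34956436-34959238 for Hspa1b), had 2.63, 2.58 and 2.08 CPM in Control and 0.872, 1.97 and 1.73 CPM in CBP-ifKO. It was lower without overlap but did not pass (edgeR adjusted p = 0.224), with -0.63 ± 0.29 SE as its log2 fold change.

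The 2 genes are near copies, with 58.8% of the 50-base words of Hspa1a also present in Hspa1b, so their separate counts are uncertain, and reads of the shared stretches may be missing from both after the filter on mapping quality, which was not tested. Summed, they measured 6.76, 8.42 and 4.46 CPM in Control and 2.62, 3.35 and 3.95 CPM in CBP-ifKO. The sum was lower in every CBP-ifKO library than in any Control library (log2 fold change -0.98, edgeR adjusted p = 0.0149, a fit added after the separate values were seen). Immediate early genes, whose RNA like that of the inducible Hsp70 genes responds fast to stimulation, summed to 137, 212 and 145 CPM in Control and 157, 99.9 and 138 CPM in CBP-ifKO. Control replicate 2 was the highest library for both, and the summed immediate early genes overlapped between groups. Gene by gene, all 10 had log2 fold changes below 0, with a median of -0.40, where 49.3% of all genes tested lay above 0. Fosb was lower (-1.03 ± 0.28 SE, adjusted p = 0.0349 by edgeR and 0.0996 by DESeq2). Its edgeR adjusted p was 0.0578 without Control replicate 2, 0.14 without Control replicate 3, 0.0600 when CBP-ifKO replicate 1 was dropped and 0.187 (log2 fold change -0.71) when CBP-ifKO replicate 2 was. The part that the change of the immediate early genes has in the Hsp70 difference was not tested.

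The abundant cytosolic chaperones did not pass the threshold. Hsp90ab1, the constitutive Hsp90, had the highest level per length of the set, 329 CPM per kilobase in Control, and a log2 fold change of -0.04 (95% interval -0.16 to 0.08, edgeR adjusted p = 0.773). Hspa8, encoding Hsc70, the constitutive Hsp70 of neurons, stood at 61.2 CPM per kilobase and had a log2 fold change of 0.05 (95% interval -0.08 to 0.18, edgeR adjusted p = 0.718), with 52.7% of its 50-base words shared with other genes, mostly pseudogenes. Hsp90aa1, the inducible Hsp90, was above the Control range in every CBP-ifKO library, with 193, 194 and 191 CPM against 197, 220.0 and 208 CPM, but did not pass (log2 fold change 0.12, edgeR adjusted p = 0.272). Other genes shared 58.5% of the 50-base words of Hsp90aa1, against 4.49% for Hsp90ab1, so its level is less certain. Hsph1, an Hsp110 exchange factor, was lower without overlap, with 285, 287 and 291 CPM against 270.0, 277 and 269.7 CPM, and did not pass either (log2 fold change -0.08, edgeR adjusted p = 0.441). On the per-length scale Hspa1b and Hspa1a lay far below these, at 1.47 and 0.819 CPM per kilobase in Control.

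Among the partners of Hsp70, Dnaja1, a J-domain co-chaperone, came closest to the threshold. It measured 89.7, 98.4 and 87.9 CPM in Control and 106, 108 and 102 CPM in CBP-ifKO, without overlap (log2 fold change 0.20, 95% interval 0.06 to 0.34, edgeR adjusted p = 0.0845). It passed with scaling by library totals (0.0414) and without Control replicate 2 (0.0194). Other genes shared 28.8% of its 50-base words. Dnajb1, the J-domain partner of inducible Hsp70, had a log2 fold change of 0.04, and Bag3, an exchange factor that steers clients to autophagy, had -0.12 at 3.01 to 4.32 CPM. Hsf1, the transcription factor itself, measured 23.1, 26.7 and 22.5 CPM in Control and 26.4, 24.4 and 23.4 CPM in CBP-ifKO. Its groups overlapped fully (log2 fold change 0.03, 95% interval -0.18 to 0.24, edgeR adjusted p = 0.908).

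**Figure D3:**
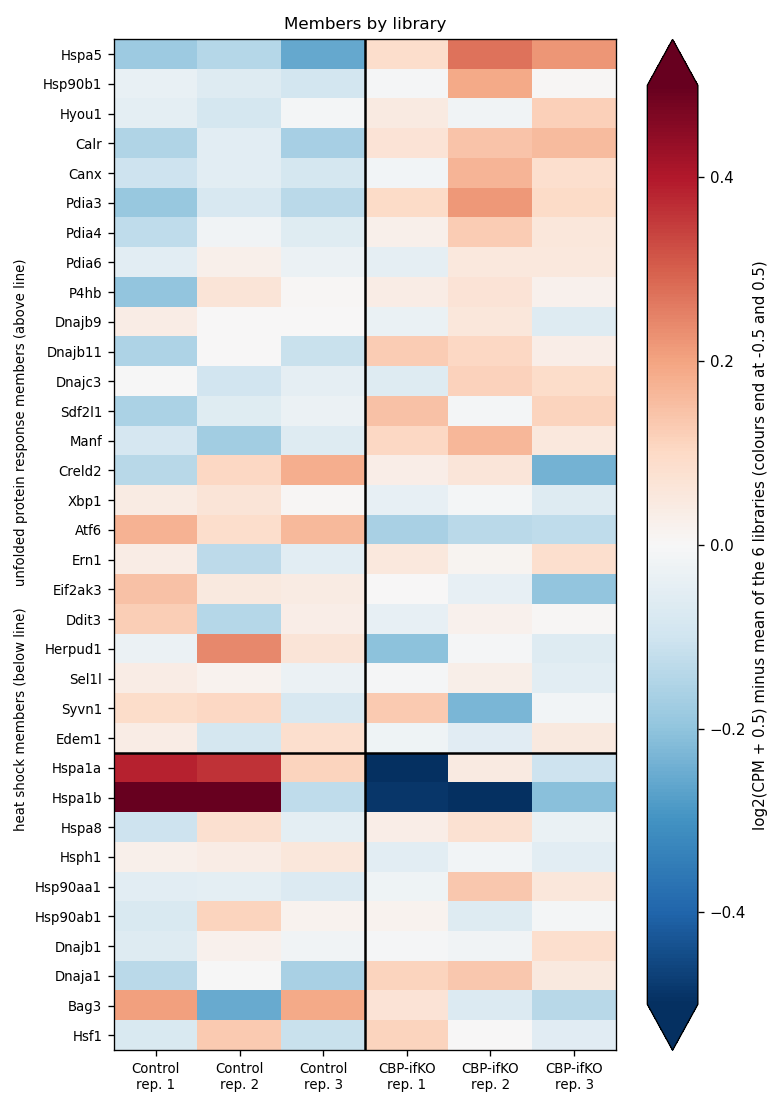
Level of each tested gene in each library, as log2(CPM + 0.5) minus the mean over the 6 libraries, with the colour scale ending at -0.5 and 0.5 and the unfolded protein response genes above the horizontal line. Hspa5, Calr, Pdia3, Pdia4, Manf and Dnaja1 are below 0 in every Control library and above 0 in every CBP-ifKO library. Atf6, Xbp1 and Hsph1 are the reverse. Hspa1a and Hspa1b show the widest range, with Control replicates 1 and 2 high and the lowest library being CBP-ifKO replicate 1 for Hspa1a and CBP-ifKO replicate 2 for Hspa1b.

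The groups did not overlap in 17 of the 34 tested genes, 11 higher and 6 lower in CBP-ifKO, where 25.6% of all tested genes did not overlap. The genes are not independent of each other, and the share of the set was not tested against that background. The 25 unfolded protein response genes summed to 2541, 2599 and 2532 CPM in Control and to 2689, 2902 and 2788 CPM in CBP-ifKO. The 11 heat shock genes summed to 1803, 1982 and 1874 CPM in Control and to 1895, 1879.9 and 1872 CPM in CBP-ifKO. The ER sum was thus higher in every CBP-ifKO library, and the cytosolic sum overlapped. Abundant genes weigh most in these sums. Mean CPM in Control and CBP-ifKO was 547 and 613 for Canx, 284 and 336 for Calr, and 263 and 288 for Hsp90b1. It was 200 and 262 for Hspa5, and 146 and 176 for Pdia3. Of the 24 unfolded protein response genes tested, 14 had log2 fold changes above 0 and 10 below. In the cytosolic sum, Hsp90ab1 alone gave 986 and 960 CPM. CBP-ifKO replicate 2 had the highest level in CBP-ifKO for Hspa5, Hsp90b1, Canx and Pdia3.

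Other genes of the ER protein pathways, a list of 68 of which 66 were tested, held 3 that passed the threshold, beside 6.39% of all genes tested. An unadjusted p under 0.05 by edgeR was found for 10 of the 66, beside 3816 of all 17981. Above 0 lay 41 of the 66, beside 49.3% of all genes tested, around a median log2 fold change of 0.052. The largest change of the 3 was that of Wfs1, encoding wolframin, an ER membrane protein and a known marker of CA1 neurons. It measured 49.4, 45.6 and 52.2 CPM in Control and 22.9, 20.8 and 21.0 CPM in CBP-ifKO, with a log2 fold change of -1.19 ± 0.085 SE (by edgeR, adjusted p = 8.34e-07). The markers of CA1 neurons, of which 3 of 4 passed as lower, moved the same way, and their part in the value of Wfs1 was not tested. Fkbp2, a prolyl isomerase of the ER, was lower (log2 fold change -0.38 ± 0.10 SE, adjusted p = 0.0348 by edgeR). That call was lost with DESeq2 (0.0750), with library totals (0.0621) and with GC and length offsets, where the log2 fold change was -0.11 (0.590), and it was kept when Control replicate 1 was dropped (0.0256) but with no other library left out (0.0668 to 0.181). Ssr3, a subunit of the translocon-associated complex, was higher (0.22 ± 0.062 SE, adjusted p = 0.0384 by edgeR). Its call was lost with GC and length offsets (0.0657) and when Control replicate 1 (0.0528), Control replicate 3 (0.125), CBP-ifKO replicate 2 (0.145) or the third CBP-ifKO library (0.106) was dropped. Atf6b, the paralog of Atf6, had a log2 fold change of -0.33 that did not pass (edgeR adjusted p = 0.0741), whereas it passed with the replicate number as a block (0.0418), without a filter on low counts (0.0322) and when CBP-ifKO replicate 3 was dropped (0.0377), and with GC and length offsets it was -0.13 (0.477).

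Among 47 other cytosolic and mitochondrial chaperone genes, all tested, 0 passed in edgeR and 0 in DESeq2. An unadjusted p under 0.05 by edgeR was found for 7 of the 47, 2 higher and 5 lower, beside 3816 of all 17981 genes tested. Their median log2 fold change was 0.021. The 8 subunits of the cytosolic chaperonin all lay above 0, where 49.3% of all genes tested did, and 0 had an unadjusted p under 0.05.

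**Figure D4:**
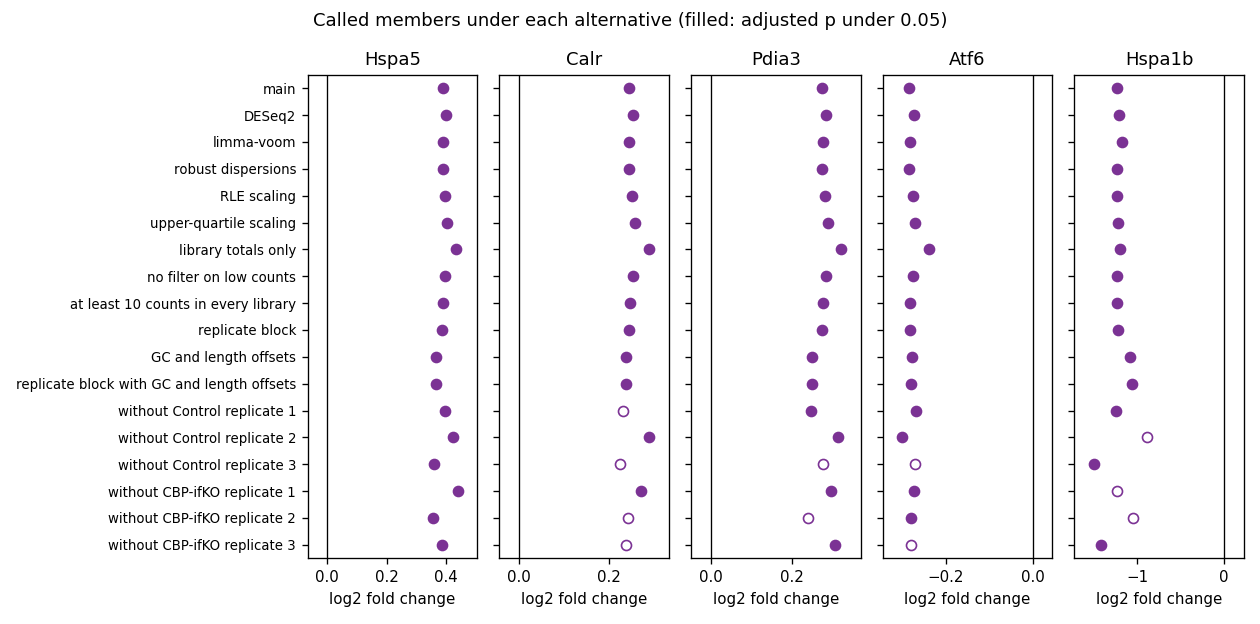
log2 fold change of the 5 called genes (x axis, one panel each) as reported and under 17 alternatives (y axis), filled where the adjusted p was under 0.05 and open where it was not. Hspa5 stays filled in all 17, and the open points of the other genes occur only where a library was left out.

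Hspa5 was called under all 17 alternatives, with log2 fold changes from 0.36 to 0.44. Pdia3 and Atf6 were called under 15 of 17, Hspa1b under 14 and Calr under 13, and every loss came from leaving out 1 library. The fold changes varied with base composition over all genes. Among the genes poorest in GC (27.5% to 42.5%) the median was 0.065 and 2.34% were called higher. Among the genes richest in GC (54.5% to 78.3%) the median was -0.13, 12.9% were called and 0.362% were called higher. Hspa1b, at 58.1% GC, is one of these, and with GC and length offsets its log2 fold change was -1.09 and still passed. Hspa5, Pdia3 and Calr stood at 45.6%, 46.9% and 50.0% GC. With these offsets their log2 fold changes were 0.37, 0.25 and 0.24, and all 3 still passed.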

How the data were processed

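Hippocampal RNA was sequenced in 6 libraries, 3 Control and 3 CBP-ifKO, grouped by title. Single-end reads of 50 bases were trimmed, aligned with STAR 2.6.1 to GRCm38 (mm10), filtered on mapping quality and counted over Ensembl exons with Rsubread. FastQC 0.11.8 and Trim Galore 0.6.4 are named in the submitters' processing notes. The authors deposited raw counts per gene with no normalization, and whether counting used the strand is not given in the sources used here. Reads of genes that overlap on opposite strands (19% of the Hspa1a exons, 10.3% of Hsp90b1, 7.05% of Dnaja1) may therefore be mixed.

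Symbols, coordinates and lengths came from a GENCODE annotation of the same build, which matched 99.41% of identifiers. The name Ddit3 matched 2 identifiers, and the protein-coding one with reads was used. Counts were tested with the quasi-likelihood F-test of edgeR 4.0.16 (R 4.3.3) with TMM scaling, filterByExpr (minimum count 10, minimum total 15) and Benjamini-Hochberg adjustment over all 17981 genes tested, with a threshold of 0.05. The standard error is the size of the log2 fold change divided by the square root of F. At 10199008 to 14950257 counts per library, replicates varied by 6.81% (coefficient of variation from the common dispersion), and counting error exceeds this for genes at a few CPM. No library pair of a group agreed within sampling noise. Scripts were tested on simulated counts.

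All genes of the set, the marker lists and the other ER and chaperone lists were chosen with earlier results of these data known. Every member was named by rule, as were called genes of the other lists. Alternatives were DESeq2 1.42.0 (the study used version 1.30.1), limma-voom (limma 3.58.1), robust dispersions, other scalings, other filters, a replicate block, GC and length offsets (splines with 5 degrees of freedom) and leaving out each library.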

Additional observations from a re-analysis of the deposited data

How the results depend on the processing

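Of 577 refitted fold changes of the 34 tested genes, 541 kept their direction and side of the threshold, 11 lost a call, 3 gained one and 22 changed sign in 8 genes, none of them past the threshold. The number of unfolded protein response genes called ran from 1 to 4 with 1 library left out. For the heat shock genes it was 2 with library totals (Dnaja1 added) and 0 to 1 with 1 library left out. For other ER genes it was 1 (Wfs1) with GC and length offsets, 1 to 2 with 1 library left out, and 4 with the replicate block and without a filter (Atf6b added), for other chaperone genes 1 (Dnajb5) with those offsets, 4 (Dnajb2, Dnajb5, Ubb and Hspa2) when the replicate block was added to them, and 0 to 1 with 1 library left out. These genes were named after their values were seen. Over all genes 498 to 1326 were called with 1 library left out, 498 without CBP-ifKO replicate 2, 526 without CBP-ifKO replicate 3, 546 without Control replicate 3, and 1777 with the block and offsets. Canx passed with library totals (adjusted p = 0.0433). The median log2 fold change of the unfolded protein response genes was 0.14 with library totals, a scaling that moved the median of all genes to 0.043. It was 0.073 with GC and length offsets and 0.072 with the block and offsets, settings that each moved the median of all genes to 0.017. With 1 library left out the median of the unfolded protein response genes was 0.072 to 0.10. That of the heat shock genes was -0.035 to 0.046 with 1 library left out. The sign turned with library totals for Dnajb9 (0.019), Ddit3 (0.037), Sel1l (0.028), Edem1 (0.024) and Hsp90ab1 (0.0077), for Ddit3 with upper-quartile scaling (0.0039) and without a filter (0.000050), and for Syvn1 with GC offsets (0.042) and with the block and offsets (0.044). With 1 library left out the log2 fold change ran from -0.059 to 0.010 for Dnajb9, -0.19 to 0.0031 for Creld2, -0.076 to 0.055 for Ddit3, -0.033 to 0.016 for Sel1l, -0.17 to 0.021 for Syvn1, -0.063 to 0.018 for Edem1, -0.084 to 0.020 for Hsp90ab1 and -0.015 to 0.12 for Hsf1. The cause of these shifts was not tested.

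Replicate numbers did not pair the libraries, with correlations of deviations of 0.077, 0.037 and 0.0022 between libraries of the same number, and not every library correlated best with its own number. With the number as a replicate block the fit called 1210 genes, of which 1091 were among the 1149 called without it, and the set again had 4 unfolded protein response calls and 1 heat shock call. Among the genes of the other lists named in the text, the block changed the call of Atf6b. Depth limits Hspa1a, Hspa1b, Bag3 and Sdf2l1, each at 72 or fewer reads per library, and Trib3 and Hspb1 had too few for any test.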
